A study of Mus musculus with 6 samples.

Results

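Complement gene expression was examined in the lung of RAG1-/- mice, which lack adaptive immunity, and of RAG1-/- mice that also lack 1 copy of the cohesion gene Sgo1. The genes were 9 complement genes expressed in lung, C1qa, C1qb, C1qc, C2, C3, C4b, Cfb, Cfp and C3ar1, taken from the 25860 genes of the deposited count table by symbol. All 9 were found, and all 9 reached a sum of 10 reads over the 6 libraries, the minimum for a test, which 17231 genes passed. The libraries came from lung of normal appearance, 1 library per mouse, with replicates 1, 2 and 3 from 3 RAG1-/- animals and replicates 4, 5 and 6 from 3 RAG1-/- Sgo1-/+ animals. RAG1 is needed to rearrange antigen receptor genes, so both groups lack mature B and T cells, and neither received any treatment. Sgo1 protects the cohesion of sister chromatids, and loss of 1 allele serves as a model of chromosome instability. The mice were 12 months old, of the C57BL/6 background and of both sexes, and came from F2 litters of a cross of RAG1-/- with Sgo1-/+ mice. The sex of each mouse is not given in the sources used here. Both losses are in every cell of the animal and not in a chosen cell type, and lung was taken only where it looked normal. No wild-type and no Sgo1-/+ lung was among the 6 libraries, so every value below is on the RAG1-/- background.

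Complement is a cascade of proteins that marks microbes, immune complexes and dying cells. C1q, built from the products of C1qa, C1qb and C1qc, recognises its targets in the classical pathway and is made mostly by macrophages. Of the proteases C1r and C1s, C1s then cleaves C4 and C2 to form the classical C3 convertase. C3 is the central component that both convertases split. Factor B (Cfb) and factor D (Cfd) build the alternative convertase, and properdin (Cfp) stabilises it. C3ar1 is the receptor for the fragment C3a on myeloid and other cells. The liver makes most of the C3, C4 and factor B of the blood, while epithelial cells, fibroblasts, mesothelial cells and macrophages make them within tissues.

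The reads counted on genes numbered from 3205822 to 9366774 per library, so that 3 reads, taken as the smallest amount detected, equal 0.320 to 0.936 CPM, the unit of level used here, which is the count divided by the library's total and scaled alike in each library. Lung identity was present throughout, with Scgb1a1, a club cell product, at 47501 to 72841 CPM and Sftpc, a surfactant protein of alveolar type 2 cells, at 12426 to 20390 CPM. The targeted genes do not check the labels. For Sgo1 the RAG1-/- libraries held 6, 2 and 4 reads against 6, 0 and 2 in the double mutant, and for Rag1 24, 10 and 16 against 12, 8 and 8, with the deleted bases not given in the sources used here. The library labelled RAG1-/- replicate 2 went against its label, since Igkc, the kappa light chain constant region, had 1853 reads there and 0 to 8 in the other libraries. RAG1-/- Sgo1-/+ replicate 6 stood apart for Chil3, a product of alveolar macrophages, at 6083 CPM against 238 to 651 CPM elsewhere. RAG1-/- replicate 1 stood apart for adipocyte markers, which summed to 1015 CPM there and to 80.6 to 160 CPM in the other libraries.

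The sequence before the start of transcription is shown for members with an entry in the RefSeq promoter table. Whether it bears on the levels in the results that follow was not tested. Of the 9 members, 5 had an entry. Each run is 250 bases, 5′ to 3′ on the strand of the gene, with RefSeq coordinates on GRCm38.p6, while the reads were counted on an earlier build. Capitals mark matches, on either strand, to the motifs searched. GAGGAA is the core of the box bound by the myeloid factor PU.1. TTGCNNAA is the motif of C/EBP factors. TGANTCA is the motif of AP-1. TATAAA is the TATA box, and the interferon-stimulated response element was searched too.
C3, chr17:57228137-57228386, minus strand: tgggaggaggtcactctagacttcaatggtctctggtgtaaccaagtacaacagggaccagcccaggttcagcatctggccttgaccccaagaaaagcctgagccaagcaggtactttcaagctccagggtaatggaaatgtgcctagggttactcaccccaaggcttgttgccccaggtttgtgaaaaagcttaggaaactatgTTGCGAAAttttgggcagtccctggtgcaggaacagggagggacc
C1qb, chr4:136886201-136886450, minus strand: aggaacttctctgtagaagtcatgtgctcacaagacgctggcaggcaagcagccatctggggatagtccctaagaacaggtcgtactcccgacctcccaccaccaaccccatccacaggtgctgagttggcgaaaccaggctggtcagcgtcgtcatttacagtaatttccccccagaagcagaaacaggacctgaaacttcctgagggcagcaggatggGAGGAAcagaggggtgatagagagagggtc
C1qc, chr4:136892915-136893164, minus strand: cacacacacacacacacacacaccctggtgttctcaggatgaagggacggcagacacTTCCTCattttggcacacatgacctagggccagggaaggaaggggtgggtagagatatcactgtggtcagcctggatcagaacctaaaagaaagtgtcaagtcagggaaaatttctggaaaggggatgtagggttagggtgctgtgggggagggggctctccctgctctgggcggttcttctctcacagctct
C3ar1, chr6:122856158-122856407, minus strand: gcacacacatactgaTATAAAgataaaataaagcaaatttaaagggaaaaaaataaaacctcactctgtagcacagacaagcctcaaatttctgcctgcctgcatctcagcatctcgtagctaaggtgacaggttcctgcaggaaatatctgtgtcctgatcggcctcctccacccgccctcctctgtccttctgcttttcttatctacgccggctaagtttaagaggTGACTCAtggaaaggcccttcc
Cfp, chrX:20931556-20931805, minus strand: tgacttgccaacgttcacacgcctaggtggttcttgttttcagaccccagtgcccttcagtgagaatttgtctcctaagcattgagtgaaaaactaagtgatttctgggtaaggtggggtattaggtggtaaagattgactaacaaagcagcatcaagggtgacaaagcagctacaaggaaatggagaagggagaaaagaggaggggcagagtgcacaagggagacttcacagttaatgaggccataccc
C3 held TTGCNNAA with its first base at -45, counted from the start of transcription, and 9.56% of 32851 promoters of this length hold that motif. GAGGAA was found in C1qb at -30 and, on the opposite strand, in C1qc at -193, and 23.3% of all promoters hold it. C3ar1 had TATAAA at -235, held by 12.4% of promoters, and TGANTCA, which reads the same on both strands, at -22, held by 6.75%. The interferon-stimulated response element, held by 2.98% of promoters, was in 0 of the 5, and Cfp held none of the motifs. These matches are letters in a window, not sites shown to be bound. C1qa, C2, C4b and Cfb are named only.

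No difference between the genotypes was detected in any of the 9 complement genes. C3 averaged 568 ± 331 CPM (SD, n = 3) in RAG1-/- and 710 ± 427 CPM (n = 3) in RAG1-/- Sgo1-/+, C4b averaged 349 ± 213 against 352 ± 157 CPM, and the C1q genes differed by 1.09-fold to 1.39-fold. By the quasi-likelihood test of edgeR with Benjamini-Hochberg adjustment over all genes tested, 0 of 9 passed an adjusted P under 0.05 with at least a 2-fold difference, and 0% of the 17231 genes did. At an unadjusted P under 0.05 the count was again 0 of 9, beside 976 genes or 5.66% of all tested. DESeq2 and limma-voom also called 0 of the 9. The groups overlapped in all 9 genes, while 2030 genes, 11.8% of all tested, had groups that did not overlap in either direction. The fitted value was above 0 for 8 of the 9 genes and below 0 for C2, with a median log2 fold change of 0.32 (RAG1-/- Sgo1-/+ over RAG1-/-). Over all genes tested the median was 0.034, with 9461 values above 0 and 7770 below. The sign of the median over the 9 genes rested on single libraries, since it was -0.27 without RAG1-/- Sgo1-/+ replicate 6 and -0.052 without RAG1-/- replicate 1. In whole lung, fewer cells of a type and less RNA per cell cannot be told apart, which holds for every level given here.

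**Figure D1:**
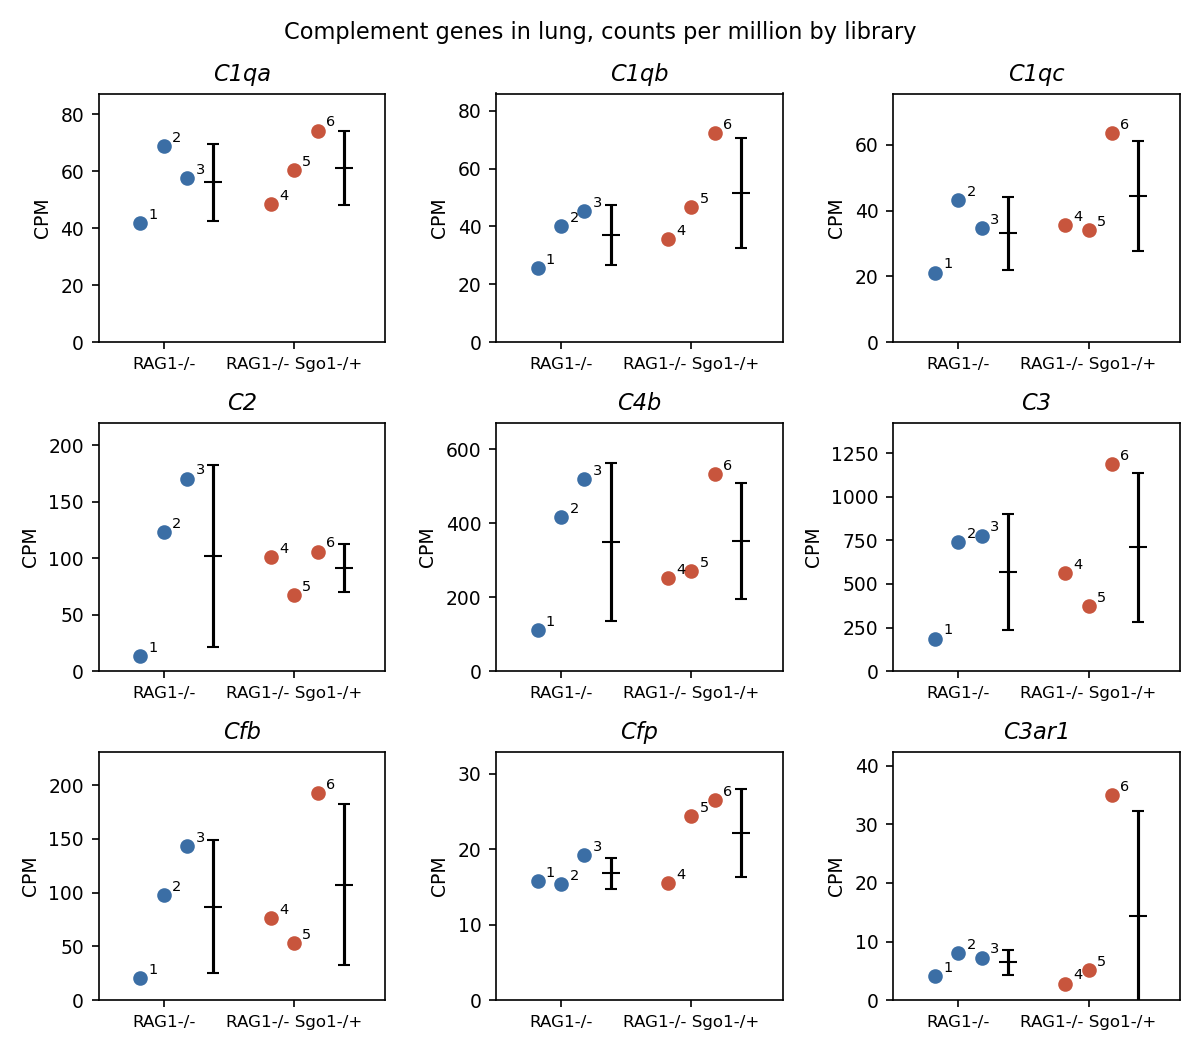
Level of each complement gene in CPM (linear axis from 0) in the 3 RAG1-/- libraries (blue) and the 3 RAG1-/- Sgo1-/+ libraries (red), numbered by replicate, with black bars for mean and SD over 3 libraries (the lower SD bar of C3ar1 is clipped at 0). The groups overlap in every panel, with replicate 1 lowest in 7 panels and replicate 6 highest in 8.

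Per kilobase of exon, C3 was the most abundant of the 9, with a median of 127.1 CPM per kb over the 6 libraries and a range of 36.4 to 231.6. C4b followed at 64.0 CPM per kb (20.7 to 98.9), and C1qa at 56.7 (40.2 to 71.4). C1qb at 39.3, C2 at 37.15, Cfb at 31.7 and C1qc at 29.2 CPM per kb lay close together, with ranges that overlapped. Properdin was lower at 10.7 CPM per kb (9.39 to 16.2), below every value of the C1q genes. C3ar1 was the lowest at 1.45 CPM per kb, and its highest library, at 8.12, did not reach the lowest of Cfp. In CPM per kb, C3 was above C4b in all 6 libraries, and C1qa was above C1qb and C1qb above C1qc in all 6 as well.

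The 3 genes of C1q, the recognition protein of the classical pathway, stayed within a 2.05-fold range in either group. C1qa had 41.9, 68.7 and 57.5 CPM in RAG1-/- and 48.5, 60.4 and 74.2 CPM in RAG1-/- Sgo1-/+. C1qb had 25.6, 40.0 and 45.4 CPM against 35.6, 46.7 and 72.4 CPM. C1qc had 21.1, 43.2 and 34.8 CPM against 35.6, 34.1 and 63.6 CPM. For all 3 subunits RAG1-/- replicate 1 was the lowest library and RAG1-/- Sgo1-/+ replicate 6 the highest, with the other 4 in between and the groups overlapping. On the log2 scale C1qa differed by 0.12 (SE 0.21, adjusted P = 0.943), C1qb by 0.47 (SE 0.27, adjusted P = 0.84) and C1qc by 0.42 (SE 0.30, adjusted P = 0.855). Without replicate 6 the values were -0.033, 0.16 and 0.089, and without replicate 1 they were -0.052, 0.26 and 0.17. In the exact permutation test of CPM, whose smallest possible P with 3 against 3 libraries is 0.1, P was 0.7, 0.4 and 0.5. The chains of C1q are needed in equal amount in the protein, and the ratio of C1qa to C1qb reads was 1.03 to 1.72 and that of C1qc to C1qb 0.73 to 1.08 over the 6 libraries. C1q is a macrophage product, and the 12 macrophage markers, which do not include C1q, summed to 609, 620 and 734 CPM in RAG1-/- and 692, 641 and 993 CPM in RAG1-/- Sgo1-/+. That sum was likewise lowest in replicate 1 and highest in replicate 6. Apoe alone held 338 to 496 CPM of it, and not every marker followed this order. Mrc1 and Csf1r were not low in replicate 1, at 104 and 89.6 CPM. Csf1r was lowest in replicate 6, at 73.0 CPM against 74.6 to 96.6 CPM elsewhere. The part of macrophages in the C1q levels was not tested.

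Among the genes of the classical convertase, C2 varied most between mice of 1 genotype. C2, the protease subunit, had 13.2, 123 and 170 CPM in RAG1-/- and 101, 67.2 and 106 CPM in RAG1-/- Sgo1-/+. RAG1-/- replicate 1 alone lay far below the rest, at 124 reads in the deepest library, and the range within RAG1-/- was 12.9-fold against 1.57-fold in RAG1-/- Sgo1-/+. C2 gave a log2 fold change of -0.16 with an SE of 0.63 (adjusted P = 0.98). It became -0.69 without that library (unadjusted P = 0.00992 by edgeR, with adjusted P from 0.422 to 1 over the alternatives), and 0.54 under limma-voom, which averages on the log scale. C4b, the thioester protein that binds the target surface, had 111, 417 and 520 CPM against 251, 272 and 532 CPM, with replicate 1 again lowest. C4b gave a log2 fold change of 0.0086 with an SE of 0.47 (adjusted P = 0.999), which became -0.42 both without replicate 1 and without replicate 6. C4a, its paralog, had only 31, 54 and 67 reads against 74, 45 and 94, or 0.0195 to 0.0595 reads per C4b read. C4a gave a log2 fold change of 1.11 (SE 0.51, unadjusted P = 0.0541, adjusted P = 0.832), which was 0.55 without replicate 6 and 0.70 without replicate 1. The 2 transcripts share 871 of the 5280 runs of 100 bases in C4b (16.5%), and how reads that fit both were assigned is not stated, so the C4a level is uncertain.

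C3 had 187, 741 and 777 CPM in RAG1-/- and 565, 374 and 1190 CPM in RAG1-/- Sgo1-/+. Replicate 1 was the lowest and replicate 6 the highest of the 6 libraries, and the others lay between 374 and 777 CPM with no separation of the genotypes. C3 gave a log2 fold change of 0.32 with an SE of 0.51 (adjusted P = 0.94), and the exact permutation P was 0.7. The value was -0.27 without replicate 6 and -0.099 without replicate 1, so that the direction followed the choice of library. The range within a group was 4.16-fold in RAG1-/- and 3.18-fold in RAG1-/- Sgo1-/+. C3 and C4b reads kept a ratio of 1.38 to 2.25 in the 6 libraries.

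In the alternative pathway, factor B and properdin differed in how much they varied. Cfb had 20.2, 97.8 and 143 CPM in RAG1-/- and 76.6, 53.0 and 193 CPM in RAG1-/- Sgo1-/+. Its libraries stood in the same order as those of C3, from replicate 1 at the bottom through replicates 5, 4, 2 and 3 to replicate 6. Between the genotypes Cfb differed by 0.30 on the log2 scale (SE 0.61, adjusted P = 0.956), with a value of -0.42 without replicate 6 and -0.18 without replicate 1. Cfb took 1 read for every 5.44 to 9.26 reads of C3. C2 and Cfb are neighbouring genes, and 53.2% of the 100-base runs of C2 and 81% of those of Cfb also lie in Gm20547, a read-through model in GENCODE. The ratio of C2 to Cfb reads was 1.19 to 1.32 in 4 libraries but 0.656 in replicate 1 and 0.549 in replicate 6. Cfp, the only positive regulator of the pathway, had 15.8, 15.4 and 19.2 CPM against 15.6, 24.5 and 26.5 CPM. It had the narrowest range within RAG1-/- of the 9 genes, 1.25-fold, and replicate 1 was not its lowest library. On the log2 scale the difference in Cfp was 0.39 with an SE of 0.23 (adjusted P = 0.839), and its exact permutation P was 0.3.

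The C3a receptor C3ar1 had 4.06, 8.08 and 7.26 CPM in RAG1-/- and 2.83, 5.19 and 34.9 CPM in RAG1-/- Sgo1-/+. A single library, replicate 6, was far above the other 5, while the 2 other RAG1-/- Sgo1-/+ libraries lay below the middle RAG1-/- value. These levels rest on 14 to 112 reads. Its log2 fold change of 1.10 (SE 0.76, adjusted P = 0.855) became -0.66 without replicate 6. Relative to C1qb reads, C3ar1 was at 0.0795 to 0.202 in 5 libraries and at 0.483 in replicate 6. In the same library Chil3 was at 6083 CPM and Mrc1 at 251 CPM against 73.4 to 104 elsewhere. Cd68, a lysosomal macrophage protein, was at 63.0 CPM against 6.06 to 16.2. Some other macrophage markers were not raised in replicate 6. Csf1r was at 73.0 CPM against 74.6 to 96.6 elsewhere, and Cd163 at 5.93 CPM against 2.59 to 9.23. Between the genotypes 9 of the 12 macrophage markers had log2 fold changes above 0 and 2 below. The 10 alveolar macrophage markers summed to 6509 CPM there and to 411 to 966 CPM in the other libraries, but most of the 6509 CPM was Chil3. Ear2, the next most abundant of them, had 99.2 CPM there against 55.4 to 78.3 CPM. Of these 10 alveolar macrophage markers, 4 had log2 fold changes above 0 and 6 below. The part of macrophages in the C3ar1 level was not tested.

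**Figure D2:**
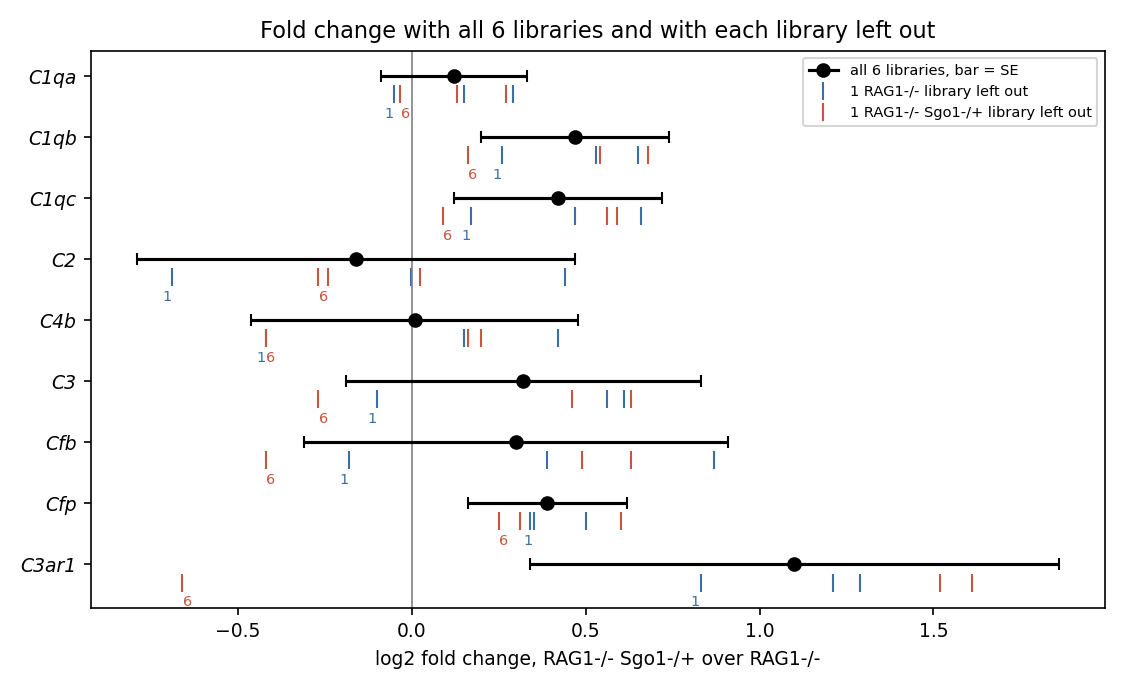
Log2 fold change of each complement gene, RAG1-/- Sgo1-/+ over RAG1-/-, from edgeR with all 6 libraries (black point, bar = SE) and with 1 library left out (tick marks, coloured by the genotype of the library left out, numbered for replicates 1 and 6). Leaving out replicate 6 moved C3ar1 from 1.10 to -0.66 and C3 from 0.32 to -0.27, and leaving out replicate 1 moved C2 from -0.16 to -0.69.

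Most of the 9 genes shared a pattern across libraries rather than between genotypes. Replicate 1 was the lowest library for 7 of the 9 genes, all but Cfp and C3ar1, whereas it was the lowest for 14.4% of all genes tested. Replicate 6 was the highest for 8 of the 9, all but C2, and for 25.4% of all genes tested, the largest share of any library. It was also the shallowest library and the lowest for 21.9% of all genes. The summed level of the 9 genes was 440, 1554 and 1775 CPM in RAG1-/- and 1132, 937 and 2292 CPM in RAG1-/- Sgo1-/+. These counts describe genes in the same 6 libraries and are not independent of each other. Replicate 2, with the immunoglobulin reads, was the lowest library for 1 of the 9 genes (Cfp), beside 15.4% of all genes tested, and the highest for 0 of the 9, beside 15.2%. Without it the median log2 fold change over the 9 genes was 0.39.

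The low values of replicate 1 ran beside those of stromal and mesothelial genes. The 6 mesothelial markers summed to 374, 1136 and 1361 CPM in RAG1-/- and 906, 594 and 1098 CPM in RAG1-/- Sgo1-/+, and this order of the 6 libraries was the same as that of C2. Upk3b, a uroplakin of the mesothelium, had 14.1 CPM in replicate 1 and 147 to 459 CPM elsewhere, and Lrrn4 had 4.38 CPM against 56.3 to 210 CPM. Krt19, a keratin of airway epithelium as well, was not low in replicate 1, at 280 CPM. The 8 fibroblast markers summed to 658, 1296 and 1411 CPM against 1089, 810 and 882 CPM, also lowest in replicate 1. Markers of hepatocytes, the main source of plasma complement, were near 0, with Ahsg at 0.371 to 1.51 CPM and Alb at 0 to 6 reads. Alveolar type 2 markers were not low in replicate 1, where they summed to 33500 CPM against 23217 to 31261 CPM in the other libraries. Interferon response genes summed to 423 to 516 CPM in RAG1-/- and 461 to 565 CPM in RAG1-/- Sgo1-/+. Of these 10 genes, 8 had log2 fold changes above 0 and 2 below, with 0 at an unadjusted P under 0.05 by edgeR. Acute phase genes summed to 1414 to 2091 against 1764 to 2274 CPM, of which Hp held 1159 to 1810 CPM. Of the 10 acute phase genes, 8 had values above 0 and 1 below. At an unadjusted P under 0.05 by edgeR there were 3 of them, beside 5.66% of all genes tested. The mesothelial, fibroblast and adipose values are given beside the complement levels, and their part in them was not tested.

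**Figure D3:**
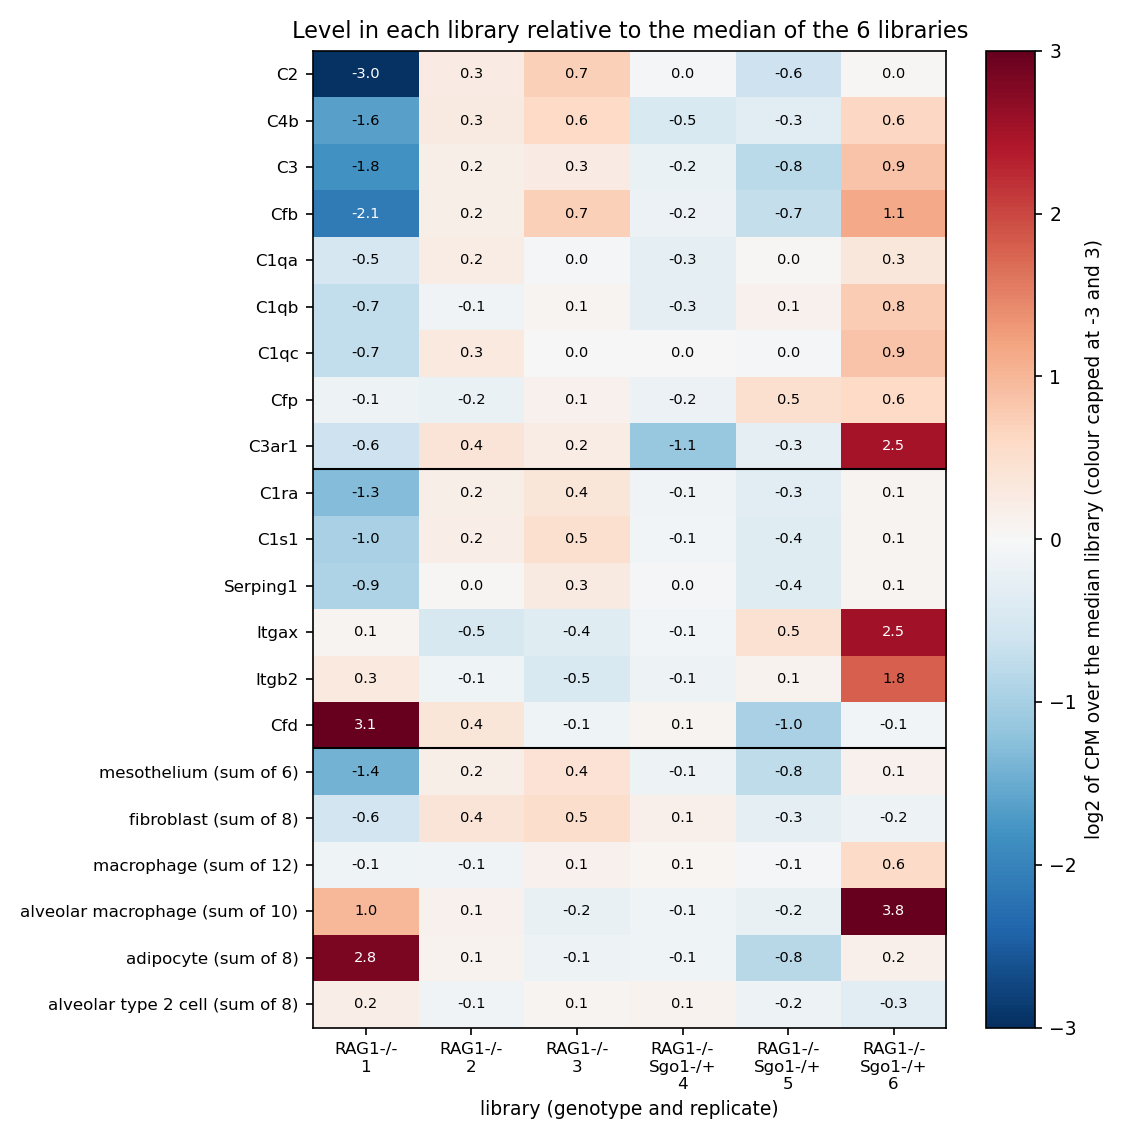
Heat map of the level of each complement gene (top block), of selected other complement genes (middle block) and of summed cell type markers (bottom block) in each library, as log2 of CPM over the median of the 6 libraries. The first column, RAG1-/- replicate 1, is low for C2, C4b, C3, Cfb, C1ra, C1s1 and the mesothelial sum and high for Cfd and the adipocyte sum, and the last column, RAG1-/- Sgo1-/+ replicate 6, is high for C3ar1, Itgax, Itgb2 and the alveolar macrophage sum. In replicate 6 that alveolar macrophage sum was mostly Chil3 (6083 of 6509 CPM).

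The wider pathway was read from 43 further complement genes, of which 34 had at least 10 reads. None was called, 22 had values above 0 and 12 below, and the median log2 fold change was 0.13. An unadjusted P under 0.05 was reached by 3 of the 34, against 5.66% of all genes tested, and groups that did not overlap by 2, against 11.8%. The smallest adjusted P among the 34 was 0.832.

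Among the proteases of the classical and lectin pathways, 5 of 6 genes were tested and 0 had an unadjusted P under 0.05. C1ra, the protease that autoactivates within C1, had 58.6, 163 and 185 CPM in RAG1-/- and 134, 114 and 152.8 CPM in RAG1-/- Sgo1-/+. C1s1, which cleaves C4 and C2, had 134, 303 and 371 CPM against 251, 205 and 281 CPM. Both genes, chosen for mention after their values were seen, followed the library order of C2. Masp2, the protease of the lectin pathway, had 25.7 to 28.8 CPM in RAG1-/- and 28.1 to 37.7 CPM in RAG1-/- Sgo1-/+ (log2 fold change 0.29, SE 0.16, unadjusted P = 0.101). Of the 6 lectin recognition genes 3 were tested and Mbl2 and Fcnb had 0 reads in every library.

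Cfd, the protease that activates factor B and the serum product adipsin of fat cells, had 546, 80.4 and 56.9 CPM in RAG1-/- and 65.9, 31.9 and 59.0 CPM in RAG1-/- Sgo1-/+. Cfd gave a log2 fold change of -2.14 with an SE of 0.73 (unadjusted P = 0.0156), and of -0.40 without replicate 1. In that library Fabp4, a fatty acid binding protein of adipocytes, had 240 CPM against 17.4 to 75.2 CPM elsewhere. Cfd is itself 1 of the 8 adipocyte markers used here.

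In the terminal pathway 4 of 7 genes were tested, and C8a, C8b and C9 had 0 reads in every library. C6, a component of the membrane attack complex, had 46.1, 47.9 and 47.8 CPM in RAG1-/- and 55.0, 51.3 and 71.4 CPM in RAG1-/- Sgo1-/+. Its groups did not overlap, with a log2 fold change of 0.32 (SE 0.15, unadjusted P = 0.0571, adjusted P from 0.569 to 1 over the alternatives). Among fluid-phase regulators 6 of 8 were tested, and 0 had an unadjusted P under 0.05. Serping1, the inhibitor of C1r and C1s, mentioned after its values were seen, had 206, 399 and 476 CPM against 383, 307 and 413 CPM, with replicate 1 lowest once more. The 6 membrane regulators were all tested, with 0 at an unadjusted P under 0.05 and a median of 0.15.

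All 8 receptors besides C3ar1 were tested, with 5 values above 0 and 3 below. Itgax, the alpha subunit of complement receptor CR4, had 37.4, 25.5 and 27.7 CPM in RAG1-/- and 33.5, 48.5 and 203 CPM in RAG1-/- Sgo1-/+. Itgax gave a log2 fold change of 1.62 with an SE of 0.56 (unadjusted P = 0.0154), and of 0.44 without replicate 6. Itgb2, the beta subunit that CR3 and CR4 share, had 56.1, 41.8 and 33.3 CPM against 41.2, 49.5 and 158 CPM (log2 fold change 0.90, SE 0.44, unadjusted P = 0.0693, and 0.047 without replicate 6). Both integrin subunits and C3ar1 had replicate 6 as the single high library. Cr2, a receptor of B cells and follicular dendritic cells, had 1, 39 and 4 reads against 0, 2 and 0 (unadjusted P = 0.0357), with 39 of its reads in the library that also held the immunoglobulin reads. C5ar2, named because it was the other gene whose groups did not overlap, had 3.843, 4.04 and 5.75 CPM against 3.838, 2.59 and 3.12 CPM.

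**Figure D4:**
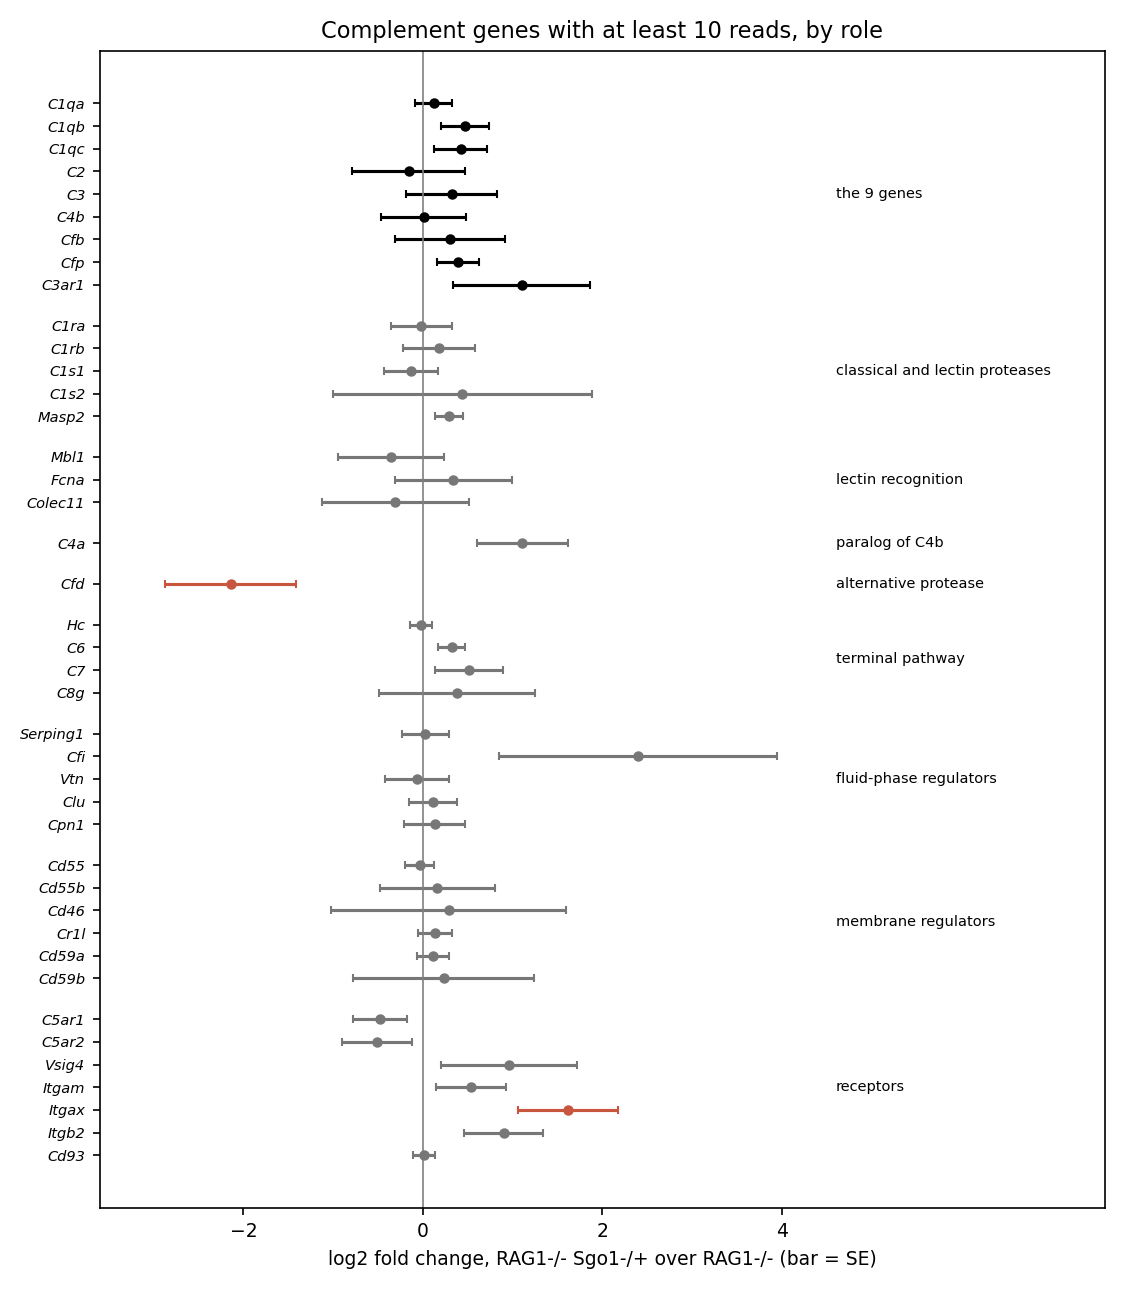
Log2 fold change, RAG1-/- Sgo1-/+ over RAG1-/-, with SE bars, for the 9 complement genes (black) and other complement genes with at least 10 reads, by role (grey, or red at an unadjusted P under 0.05). Cfd lies at -2.14 and Itgax at 1.62, and Cr2 is left out because its RAG1-/- Sgo1-/+ libraries had 2 reads or fewer.

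The genes whose levels were most like those of C1q and of C3 were found by Pearson's r of log2 CPM over the 6 libraries, among genes with a mean of at least 5 CPM. Nearest to the mean of the C1q genes were Fndc10 (r = 0.993), Zbtb22, Rai1, Gpr19, Hnrnpd, Zfp182, Plk4 and Fzr1 (r = 0.974). Of the 12757 genes compared, 143 (1.12%) reached an r of 0.9. Nearest to C3 were Slc8a1 (r = 0.998), Podn, an entry without a symbol, Cfb (r = 0.990), B4galt1, B3gnt9, Bicc1 and Fstl1 (r = 0.974), and 170 of 12759 genes (1.33%) reached 0.9. Podn, a proteoglycan of the extracellular matrix, had 18.04, 77.6 and 85.1 CPM in RAG1-/- and 52.5, 40.9 and 108 CPM in RAG1-/- Sgo1-/+. Fstl1, a secreted glycoprotein of mesenchymal cells, had 71.7, 138 and 127 CPM against 105, 98.6 and 145 CPM. With C3, r was 0.951 for C4b, 0.923 for C1qc, 0.884 for C2, 0.697 for C3ar1 and 0.373 for Cfp. These values are a description over 6 libraries that differed in depth and in their marker sums, and replicate 1 was the lowest and replicate 6 the highest for both C3 and the C1q genes.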

How the data were processed

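Total RNA of normal-looking lung was extracted with Trizol and made into Illumina TruSeq V2 libraries, sequenced as paired reads on a MiSeq. The authors deposited raw read counts per gene for the 6 libraries, made with GeneSifter on mouse genome build 37.2. The submitters' processing notes name BWA and edgeR. Strand and the handling of multi-mapping reads are not given in the sources used here. The table holds each library under a pair of identical columns, of which the first was used. A deposited list of the authors' own comparison (fold changes and P values) was not used. Of 25860 genes, 24048 (93%) received a symbol through their Entrez Gene ID. Most counts were even (63.2% to 70% per library), and halved counts were therefore tried after the data were seen. Whether both mates of a pair were counted is not given in the sources used here, and if they were, the reads printed exceed the number of sequenced fragments.

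The test was edgeR's quasi-likelihood test (edgeR 4.0.16, R 4.3.3, prior count 0.125), on genes with 10 or more reads in all and with the total count as library size. CPM are counts over that total. SE values were obtained by dividing the fitted log2 fold change by the root of F. The replicates are separate mice. Exon lengths and shared runs of 100 bases came from GENCODE M21. The members and lists were chosen with earlier results of these data known. Named genes are the members, C4a, the 8 other tested complement genes with the smallest P (1 of them is not reported here), up to 2 genes of highest CPM per marker list, the 8 genes most like C1q and C3, Sgo1 and Rag1. Lrrn4, Cd68, Csf1r, Cd163, C1ra, C1s1, Serping1 and C5ar2 were chosen after their values were seen. Marker lists were summed as CPM per library. Alternatives were equal library sizes, TMM or DESeq2 size factors, filterByExpr or no filter, thinning to the smallest total, DESeq2 1.42.0 or limma-voom (limma 3.58.1) as the test, other thresholds and libraries left out.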

Additional observations from a re-analysis of the deposited data

How the results depend on the processing

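None of the 9 complement genes was called in the main analysis or in any alternative. Over all genes, 0 were called, against 72 with equal library sizes, 1 with the DESeq2 test, 233 at an unadjusted P with at least 2-fold, and 0 to 1 with a library left out (1 without RAG1-/- Sgo1-/+ replicate 5). Of 269 alternative values for 17 named complement genes, 240 kept their direction and side of the threshold, 28 turned direction and 1, Cfd with equal library sizes (-3.10, adjusted P = 2.92e-07 by edgeR), passed it. With equal library sizes, which leave depth uncorrected and put the median of all genes at -0.59, the log2 fold change was -0.47 for C1qa, -0.16 for C1qb, -0.19 for C1qc, -0.29 for C3, -0.57 for C4b, -0.34 for Cfb, -0.26 for Cfp, -0.34 for C6 and -0.35 for Masp2. C4b was at -0.026 with TMM, -0.014 with DESeq2 size factors and -0.013 with the DESeq2 test, and C2 at 0.54 with limma-voom. Without replicates 2 and 6 together, C3 was at -0.037, C4b at -0.27, Cfb at -0.32 and C3ar1 at -0.48. With 1 library left out, C1qa ranged from -0.052 to 0.29, C2 from -0.69 to 0.44, C3 from -0.27 to 0.63, C4b from -0.42 to 0.42, Cfb from -0.42 to 0.87 and C3ar1 from -0.66 to 1.61. Apart from the equal library sizes and the libraries left out, the cause was not tested. The median over the 9 genes ranged from -0.29 (equal library sizes) to 0.54. No paired analysis was possible because the groups share no replicate number. Depth limits C3ar1 and C4a, at 14 to 112 and 31 to 94 reads.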
